A study of Danio rerio with 12 samples.

Results

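The zebrafish genes nots (ENSDARG00000099824) and fam20cl (ENSDARG00000060325) were followed through 12 liver RNA sequencing libraries. They are 2 of the 32520 genes in the deposited table, found by their symbols, and were chosen by their TPM in these same libraries, high in every female and near or at 0 in every male. That sex difference is therefore given as a description, without a test. The fish were wild-type animals of the TU strain, 4 months old, and the study asked how the livers of males and females respond to long exposure to BPAF, which is bisphenol AF, a bisphenol A analogue that carries fluorine. Males and females were each kept for 28 days either with 10 µg/L BPAF or, as controls, with DMSO (dimethyl sulfoxide, a solvent) at 0.0001%, giving male DMSO, male BPAF, female DMSO and female BPAF groups of 3 libraries each. The labels used here state no DMSO level for the exposed fish, so solvent and BPAF cannot be told apart in that comparison. Nor do they say if each library was 1 animal or a pool, so the p-values reflect sample-to-sample spread that may be technical.

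The gene nots encodes nothepsin, an aspartic protease related to cathepsins D and E that is known in zebrafish from the female liver, where estrogen induces it. In mammals FAM20C is a kinase of the secretory pathway that phosphorylates secreted proteins in the Golgi, and fam20cl is a gene of that family whose own role in zebrafish is not stated here. In egg-laying vertebrates the female liver makes vitellogenins, the yolk precursors, in response to estrogen acting through the receptor encoded by esr1.

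Values are TPM, transcript abundances scaled to a common total, which take gene length into account, so levels can be compared between genes. The sequencing depth is unknown. Library sums ran from 978504.61 to 992375.41 TPM, with 9108 to 12313 genes reaching 1 TPM in males and 7007 to 9217 in females. Of 20 hepatocyte markers, 19 were in the table and all 19 were above 0 in every library, with a summed level of 242061 to 310535 TPM in males and 80107.5 to 109914 TPM in females. Vitellogenin genes made up 19.5% to 25.7% of all TPM in females and 0.00115% to 0.0108% in males. TPM are shares of a fixed total, and the median difference of all tested genes between control females and control males was -0.52 on the log2 scale. Trimmed-mean scaling brought this to -0.10, quantile normalization to -0.04 and rescaling without the vitellogenin genes to -0.30. In a bulk sample, fewer cells of a type and less RNA per cell cannot be told apart.

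The level of nots was 1567.40, 2018.89 and 840.30 TPM in the 3 female DMSO libraries and 859.42, 1371.87 and 1325.89 TPM in the 3 female BPAF libraries. In males it was 0.37, 1.13 and 1.17 TPM with DMSO and 0.14, 0.68 and 0.61 TPM with BPAF. The lowest female value thus lay 718 times above the highest male value, and no male library reached 2 TPM. The mean was 1476 ± 595 TPM in control females against 0.890 ± 0.451 TPM in control males, and 1186 ± 284 TPM in exposed females against 0.477 ± 0.294 TPM in exposed males (SD, n = 3 each). As a share of the female mean, the male mean was 0.0603% among controls and 0.0402% among exposed fish. For comparison, the share was 0.0163% and 0.00633% for the yolk precursor gene vtg1, 0.139% and 0.157% for vtg5, and 1.79% and 1.82% for esr1. By TPM, nots ranked between 106 and 167 among all listed genes in the female libraries, with a median rank of 126, and between 8496 and 18720 in the male libraries.

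The level of fam20cl was 185.03, 175.91 and 153.21 TPM in female DMSO libraries and 181.45, 230.20 and 175.62 TPM in female BPAF libraries. All 6 male libraries listed it at 0. The mean was 171 ± 16.4 TPM in control and 196 ± 29.97 TPM in exposed females (SD, n = 3 each), and its rank in the female libraries ran from 247 to 324. Since fam20cl was chosen by this trait, the counts of genes that share it are a description and not a test. Among all 32520 genes, 3 were listed at 0 in every male library and at 1 TPM or more in every female library, and at 100 TPM or more fam20cl was the only such gene. In the reverse direction, 1 gene was at 0 in every female library and at 1 TPM or more in every male library, and none reached 10 TPM.

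**Figure D1:**
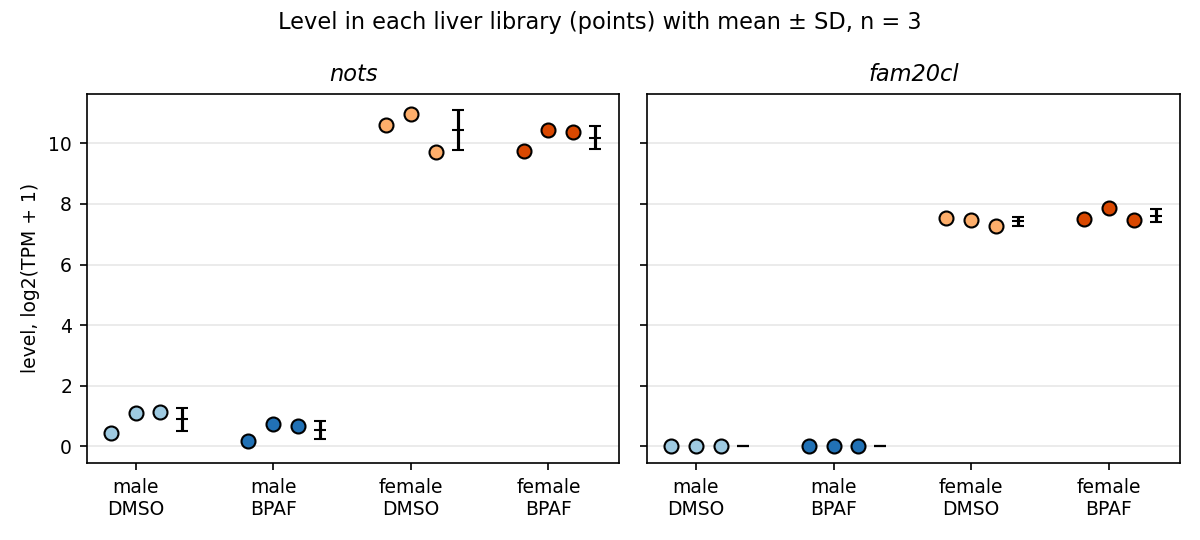
Level of nots (left) and fam20cl (right) as log2(TPM + 1) in each of the 12 liver libraries (points), with mean ± SD of the 3 libraries per group (bars). The female libraries lie far above the male ones for both genes, and fam20cl is at 0 in all 6 male libraries.

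Below 2 TPM in every male library and at 100 TPM or more in every female library were 5 genes: vtg3, vtg6, vtg7, nots and fam20cl. With the same male limit there were 9 genes at 10 TPM or more in every female library and 63 at 1 TPM or more. The gene vtg4 fell outside the male limit through male DMSO 2, at 2.51 TPM. Both nots and fam20cl were chosen by this trait, so these counts only describe it. Ordered by the lowest female value over the highest male value, nots stood at position 9, and fam20cl has no such ratio. The other genes above nots were 6 vitellogenin genes and 2 genes with clone names, and cyp2k6, a cytochrome P450 gene, followed it at 302. The values of single vitellogenin copies are uncertain, since near-identical copies share reads.

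Both genes differed in how steady they were among females. The highest female value was 2.40 times the lowest for nots and 1.5 times for fam20cl. The coefficient of variation over the 6 female libraries was 33.5% for nots and 13.8% for fam20cl, while the median was 17.5% over the 401 genes with a female mean of at least 100 TPM. Of those 401 genes, 339 varied less than nots and 130 varied less than fam20cl. The ratio of nots to fam20cl was 8.47, 11.5 and 5.48 in female DMSO libraries and 4.74, 5.96 and 7.55 in female BPAF libraries. The high nots values of female DMSO 1 and 2 had no like rise in fam20cl, whose highest value was in female BPAF 2. In males nots varied 8.36-fold, at levels near 1 TPM or below.

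The comparison the study was built for is BPAF against DMSO within a sex, which had no part in choosing the genes. Neither gene passed the test in females. For nots the log2 difference of BPAF minus DMSO was -0.26 ± 0.36 (SE), with a 95% interval from -1.04 to 0.53 and an adjusted p of 1 by limma with Benjamini-Hochberg adjustment over all 11389 tested genes. For fam20cl it was 0.18 ± 0.21 (SE), with an interval from -0.28 to 0.65 and an adjusted p of 1 by limma. Each SE pools the spread of all 4 groups, with the males, where fam20cl is at 0 throughout and nots is near the floor. Neither interval is therefore set by the spread of the female values alone. In linear terms the exposed mean was 0.804 times the control mean for nots and 1.14 times for fam20cl, and for both genes the exposed and control libraries overlapped. A 2-sided exact permutation test of each gene gave p = 0.5, where 0.1 is the smallest that 3 against 3 libraries allow. The interval for nots includes both a fall and a rise, so a missed threshold does not show that its level is the same with and without BPAF. The direction for nots rested on single libraries: without female DMSO 2 the log2 difference was 0.016, and over the libraries left out in turn it ran from -0.62 to 0.016. Across all tested genes, the share called in females was 0%, or 0 of 11389 by limma, with 157 genes at an unadjusted p under 0.05. The exposed and control females did not overlap for 510 tested genes (4.48%), and neither nots nor fam20cl was among them.

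**Figure D2:**
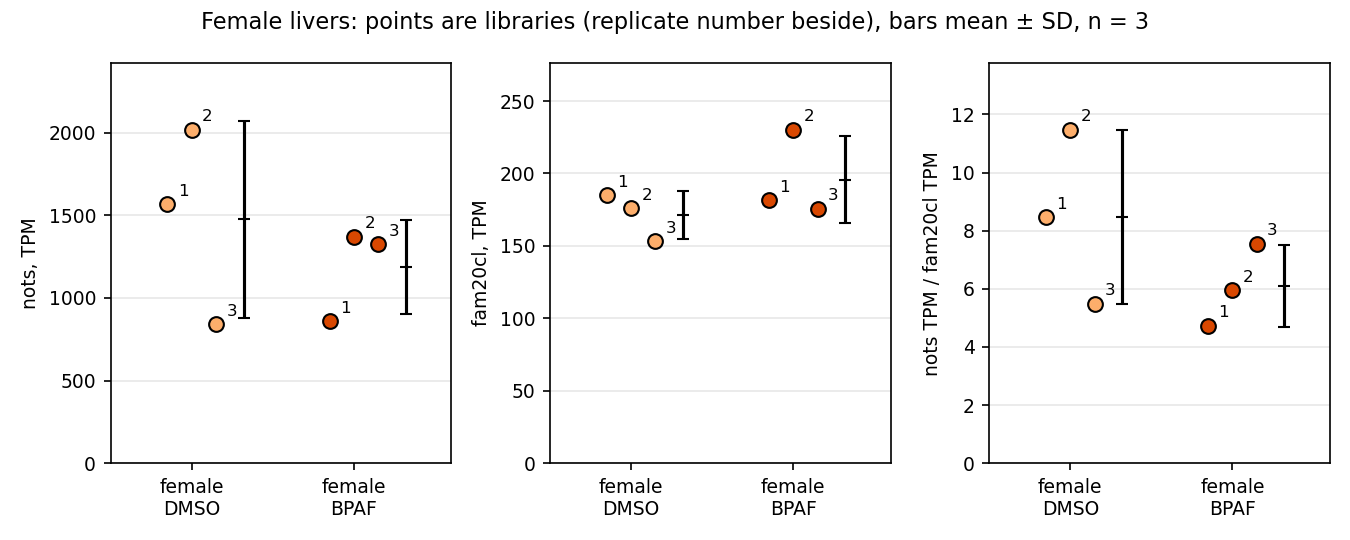
Level of nots (left) and fam20cl (middle) in TPM, and their ratio (right), in the 3 female DMSO and 3 female BPAF libraries, with replicate numbers beside the points and mean ± SD as bars. The exposed and control libraries overlap in all 3 panels, and the control libraries spread more widely for nots (840.30 to 2018.89 TPM) than for fam20cl (153.21 to 185.03 TPM).

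In males, exposed libraries had 0.14 to 0.68 TPM of nots and control libraries 0.37 to 1.17 TPM, which overlap. In each of the 3 same-numbered pairs, which the replicate check in males took as pairs, the exposed library was the lower one. The log2 difference was -0.35 ± 0.36 (SE), with a 95% interval from -1.13 to 0.44 and a limma adjusted p of 0.831, or 0.734 with the replicate number as a block. That block is shared by same-numbered libraries of both sexes, so it is not a paired test within males. The SE of 0.36 pools the spread of all 4 groups and is the same as for nots in females. The interval and p-value are therefore not set by the spread of the male values alone. An exact permutation test, which like the limma fit without the block ignored the pairs, gave p = 0.3. No test paired within males alone was run, so none of these p-values weighs the shared direction of the pairs. The exposed and control males did not overlap for 1170 tested genes (10.3%), and nots was not among them. Calls in males were 6 of 11389 genes (0.0527%), of which 5 were higher (0.0439%) and 1 lower (0.00878%) with BPAF, and 1 gene was called with the replicate block. At the level of nots in males, a difference on the log2(TPM + 1) scale understates the relative change. Only through its female values did nots pass the filter for testing, so its male comparison is of values near the floor. The response of fam20cl in males cannot be tested, since it is listed at 0 in all of them.

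The responses of the sexes to BPAF were compared by their difference, female minus male. For nots this was 0.09 ± 0.51 (SE), with a 95% interval from -1.02 to 1.2 and a limma adjusted p of 0.997. The male part of that difference comes from values near the floor, so its size depends on the pseudocount. With a pseudocount of 0.1 it was 0.57, and over all alternatives it ran from -0.27 to 0.57. It therefore does not show that the sexes respond alike. For fam20cl, with males at 0 throughout, the difference is the female response itself, and no separate test can be made. No gene was called for this difference (0% of 11389 by limma, 368 at an unadjusted p under 0.05).

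Other aspartic protease genes were not high in females. In the female libraries nots alone made up 94.9% to 98.5% of the summed TPM of the aspartic protease genes, against 0.104% to 1.61% in the male libraries. Of 9 other symbols of this class, 5 were in the table and 4 were tested. In control females against control males, 0 of the 4 were called higher and 2 lower, with a median log2 difference of -0.81 beside the -0.52 of all tested genes. Calls made up 23.3% of all 11389 tested genes in that comparison, 2.1% higher and 21.2% lower. The 2655 calls fell to 909 without female DMSO 1, to 1277 without male DMSO 1, to 1447 without male DMSO 2 and to 1591 without female DMSO 3. The 2 genes were ctsd, the lysosomal protease cathepsin D, and napsa, named for napsin A. With trimmed-mean scaling, quantile normalization or rescaling without vitellogenins, none of the 4 was called lower. With trimmed-mean scaling the split of all called genes was 433 higher and 571 lower, against 239 and 2416 as deposited. With quantile normalization it was 482 and 448, and after rescaling without the vitellogenins 261 and 839.

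The level of ctsd was 77.01, 60.20 and 73.56 TPM in male DMSO, 121.48, 79.46 and 83.93 TPM in male BPAF, 22.32, 34.53 and 39.51 TPM in female DMSO and 41.14, 18.10 and 23.40 TPM in female BPAF libraries. All 6 male libraries lay above all 6 female libraries, the reverse of nots, though how many of all tested genes separate the sexes was not counted. Among controls the log2 difference was -1.14 ± 0.33 (SE; limma adjusted p = 0.0319), and with libraries left out in turn the adjusted p ran from 0.0211 to 0.129. With trimmed-mean scaling the difference was -0.49 (limma adjusted p = 0.246). For napsa, control males had 4.59 ± 0.255 TPM and control females 1.76 ± 0.687 TPM (SD, n = 3 each), a log2 difference of -1.05 ± 0.30 (SE; limma adjusted p = 0.0290; 0.151 with trimmed-mean scaling). Its adjusted p ran from 0.0222 to 0.120 when libraries were left out. The ctsd and napsa calls both ended without any 1 of male DMSO 1, male DMSO 2 and female DMSO 1, and in addition without male DMSO 3 or female DMSO 2 for ctsd and without female DMSO 3 for napsa. With no filter on low values their adjusted p were 0.0628 and 0.0632. The beta-secretase genes bace1 and bace2 had control levels of 1.99 ± 0.520 and 1.58 ± 0.579 TPM in males, and 1.11 ± 0.795 and 1.13 ± 0.280 TPM in females, with limma adjusted p of 0.181 and 0.457. The renin gene ren was listed at 0 in every library. In exposed fish 3 of the 4 genes were called lower in females, bace1 with ctsd and napsa. The median was -1.36 on the log2 scale beside -0.78 over all tested genes, of which 47.6% were called, 1.91% higher and 45.7% lower. In numbers these were 218 higher and 5206 lower, against 396 and 249 under trimmed-mean scaling, 352 and 312 under quantile normalization, and 249 and 2504 after rescaling without vitellogenins. Under trimmed-mean or quantile scaling all 3 of those calls ended, and the bace1 call also ended without male BPAF 1 (limma adjusted p = 0.0574). As bace1 passed the filter for testing only through its male values, its call is not independent of that filter.

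Cathepsins of other protease classes and related lysosomal proteases gave a similar count as deposited. Of 16 tested genes, 0 were called higher and 7 lower in control females, with a median log2 difference of -1.22, beside 2.1% higher, 21.2% lower and a median of -0.52 over all tested genes. With trimmed-mean scaling 1 was called lower, with quantile normalization 0, and after rescaling without vitellogenins 3. Without female DMSO 1 the count was 3. By mean level the leading genes were ctsla, ctsba, ctsl.1 and ctss2.2. Of these ctss2.2, a cathepsin S gene, was called, at 69.9 ± 8.63 TPM in control males and 16.3 ± 7.17 TPM in control females (SD, n = 3 each; limma adjusted p = 0.00668, 0.0577 with quantile normalization). The gene ctsla had 157 ± 59.3 and 73.9 ± 33.3 TPM, ctsba 93.6 ± 12.4 and 48.9 ± 2.23 TPM, and ctsl.1 27.5 ± 47.0 and 0.503 ± 0.508 TPM, with limma adjusted p of 0.0778, 0.0988 and 0.507. The place of ctsl.1 rests on male DMSO 3 (81.80 TPM) and male BPAF 3 (543.67 TPM), against 0.07 to 10.82 TPM in the other libraries. Both also had the highest sums of intestine markers, 999.89 and 5323.48 TPM, a link that was not tested.

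**Figure D3:**
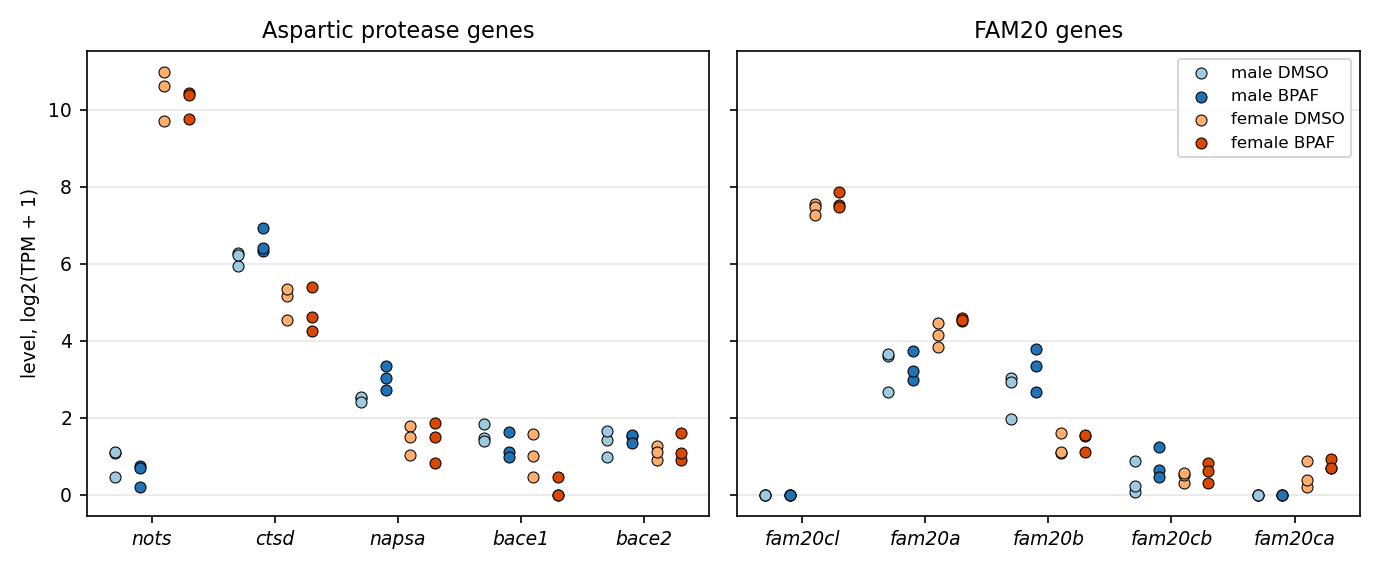
Level as log2(TPM + 1) of nots beside 4 other aspartic protease genes (left) and of fam20cl beside the other FAM20 genes (right), with 1 point per library in the 4 groups. The female points of nots and fam20cl lie far above their male points, while ctsd, napsa and fam20b have their male points above their female points.

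The other FAM20 genes showed no sex difference of this size. In females fam20cl made up 87.4% to 92.4% of the summed TPM of the FAM20 genes, which was 173 to 255 TPM in females and 8.43 to 22.8 TPM in males. In mammals FAM20A is a pseudokinase that partners FAM20C, and fam20a was at 11.02, 11.66 and 5.35 TPM in male DMSO, 12.30, 6.80 and 8.32 TPM in male BPAF, 13.15, 21.13 and 16.69 TPM in female DMSO and 23.03, 21.87 and 22.22 TPM in female BPAF libraries. Every female library lay above every male library, at the closest 13.15 against 12.30 TPM. The share of all tested genes that separate the sexes in this way was not counted. Among controls fam20a did not pass, with a log2 difference of 0.84 ± 0.32 (SE, limma adjusted p = 0.0749). It was called with trimmed-mean scaling (1.45, limma adjusted p = 0.00963), quantile normalization (1.6, adjusted p = 0.00367) and rescaling without vitellogenins (1.19, adjusted p = 0.0398). Among exposed fish it was called higher in females as deposited, by 1.24 ± 0.32 (SE; limma adjusted p = 0.0111).

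FAM20B, in mammals a kinase acting on the xylose of proteoglycans, has the zebrafish counterpart fam20b, which was lower in control females at 1.44 ± 0.517 TPM than in control males at 5.55 ± 2.298 TPM (SD, n = 3 each). The log2 difference was -1.37 ± 0.35 (SE; limma adjusted p = 0.0200). The adjusted p became 0.0900 under trimmed-mean scaling, 0.110 under quantile normalization and 0.0663 after rescaling without vitellogenins. The call also ended without any 1 of male DMSO 1, male DMSO 2, female DMSO 1 and female DMSO 2, with adjusted p of 0.0547 to 0.0784. The closest relatives by name, fam20ca and fam20cb, were near 0. In males fam20ca was listed at 0 in all 6 libraries, and in females it was at 0.83, 0.15 and 0.31 TPM with DMSO and 0.61, 0.89 and 0.62 TPM with BPAF. In contrast fam20cb was found in both sexes, at 0.04 to 1.35 TPM in males and 0.22 to 0.75 TPM in females. Neither reached the level needed for testing. The sources used here do not say how reads shared by these related genes were split.

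Over the wider list of secretory-pathway kinases, 17 of 23 symbols were in the table and 4 were tested. Among controls 0 were called higher and 1 lower, with a median log2 difference of 0.08, beside 2.1% higher and 21.2% lower over all tested genes. Among exposed fish 1 was higher, fam20a, and 2 were lower, fam20b and dipk1ab, beside 1.91% higher and 45.7% lower over all tested genes. The remaining tested gene, dipk2aa, was called in neither comparison. It was at 1.23, 0.59 and 1.63 TPM in female DMSO and 0.96, 0.57 and 0.78 TPM in male DMSO libraries. The fam20b call among exposed fish ended with trimmed-mean (limma adjusted p = 0.0892) and quantile scaling (0.0795). The dipk1ab call was lost without male BPAF 1 (limma adjusted p = 0.110), female BPAF 2 (0.0688) or female BPAF 3 (0.0975), and with each of the 3 other scalings. It is also not independent of the filter for testing, which dipk1ab passed only through its male values.

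Genes for proteins that FAM20C phosphorylates in mammals did not share the female-high pattern. Of 10 symbols 9 were in the table and 4 were tested, and 3 were called lower in control females, with a median log2 difference of -2.02, beside 21.2% lower and -0.52 over all tested genes. Hepatocyte markers, which include ahsg1, moved the same way, with 14 of 19 called lower and a median of -1.49, and their part in this count was not tested. The fetuin-like gene ahsg1 had 2846 ± 680 TPM in males and 1210 ± 185 TPM in females of the control groups (SD, n = 3 each; limma adjusted p = 0.00483). For ahsg2 the levels were 661 ± 456 and 90.6 ± 36.1 TPM (limma adjusted p = 0.00647), and for igfbp1a, a binding protein of insulin-like growth factors, 248 ± 155 and 44.97 ± 16.4 TPM (limma adjusted p = 0.0484). The igfbp1a call ended without any 1 of the 6 control libraries, without female BPAF 2 or male BPAF 3, and under a pseudocount of 5 (limma adjusted p = 0.0559) or no filter on low values (0.116). The remaining tested gene, igfbp1b, was at 24.13, 9.06 and 22.17 TPM in male DMSO and 4.67, 3.85 and 5.01 TPM in female DMSO libraries. It was not called as deposited, but was with a pseudocount of 0.1 (limma adjusted p = 0.0495). With trimmed-mean scaling none of the list was called, with quantile normalization 1 and after rescaling without vitellogenins 2. Of the 19 hepatocyte markers, 4, 10 and 8 were called lower under these scalings in turn.

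Yolk precursor genes and the estrogen receptor shared the female side. All 7 vitellogenin genes in the table were called higher in control females, beside 2.1% called higher and 21.2% lower over all tested genes. For esr1 the level was 21.25, 26.56 and 27.09 TPM in female DMSO and 28.43, 30.64 and 23.02 TPM in female BPAF libraries, and 0.19 to 0.60 TPM in males. Its log2 difference among controls was 4.17 ± 0.23 (SE; limma adjusted p = 3.84e-07). The androgen receptor gene ar was at 2.46 ± 1.51 TPM in female and 0.377 ± 0.273 TPM in male controls (SD, n = 3 each; limma adjusted p = 0.0230), a call that ended without male DMSO 2 (0.0670), female DMSO 1 (0.0709) or female DMSO 3 (0.0741), and with no filter on low values (0.0589). The genes esr1, ar, vtg3, vtg4, vtg6 and vtg7 passed the filter for testing only through their female values. Their calls between the sexes are therefore not independent of that filter. The second estrogen receptor gene with appreciable signal, esr2b, had 15.9 ± 3.71 TPM in female and 14.97 ± 8.16 TPM in male controls (limma adjusted p = 0.746). Under BPAF in females, esr1 changed by 0.13 ± 0.23 and vtg1 by -0.01 ± 0.52 on the log2 scale (SE; limma adjusted p = 1 for each), neither past the threshold.

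The genes whose profile over the 12 libraries was most like each gene were found by the root mean square difference between TPM divided by the gene's own 12-library mean, which is 0 for identical profiles. This measure spans both sexes, so any gene high in females and near 0 in males comes close by that alone. Both genes were chosen by that same trait. For nots the closest genes were vtg4 (0.236), vtg7 (0.241), vtg5 (0.277), rtn1a (0.302) and vtg2 (0.396). For fam20cl they were cyp2k6 (0.147), vtg2 (0.167), vtg1 (0.181), esr1 (0.188) and vtg5 (0.208). The cyp2k6 row is ENSDARG00000098995, since a second identifier with that symbol had a male-high profile. The closest profiles to the variable nots were those of vtg4 and vtg7, which like nots were lowest in female DMSO 3 among the females. That low library was not particular to them. It was also the lowest female library for fam20cl, vtg5, vtg6 and rtn1a, but not for vtg1, vtg2, vtg3, esr1 or cyp2k6. The level of vtg4 was 11397.6, 15623.7 and 7171.78 TPM in female DMSO and 7994.82, 15228.6 and 9824.72 TPM in female BPAF libraries. The steadier cyp2k6 was at 117.18, 114.46 and 106.52 TPM in female DMSO and 145.34, 151.68 and 99.61 TPM in female BPAF libraries, and at 0.05 to 0.33 TPM in males. The reticulon gene rtn1a had 190.56 to 330.74 TPM in females and 0.72 to 3.05 TPM in males. Between nots and fam20cl the difference was 0.428, which places fam20cl 6th from nots and nots 14th from fam20cl among genes with descriptive symbols.

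**Figure D4:**
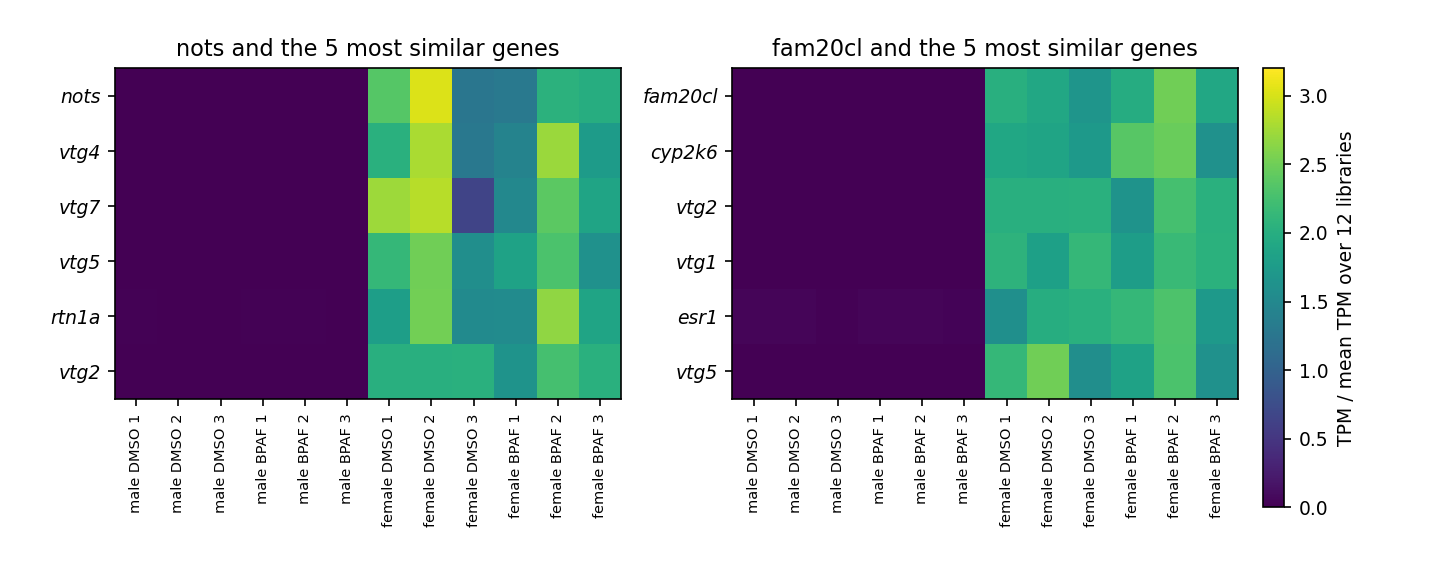
TPM divided by each gene's mean over the 12 libraries (colour) for nots (left) and fam20cl (right), each above the 5 genes of most similar profile, with 1 column per library. All rows are near 0 in the 6 male columns, and the female columns of nots and vtg4 are uneven while those of fam20cl and vtg2 are more even.

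Across the 6 female libraries, 5 relations on log2(TPM + 1) were computed, and none passed. For nots with fam20cl Pearson's r was 0.337 (exact permutation p = 0.576) and Spearman's rho 0.486 (exact permutation p = 0.356). With the summed vitellogenin level, r was 0.531 for nots (exact permutation p = 0.236) and 0.535 for fam20cl (exact permutation p = 0.265), with rho of 0.6 for each (exact permutation p = 0.242). With esr1, r was -0.329 for nots and 0.352 for fam20cl (exact permutation p = 0.536 and 0.526), with rho of -0.371 and 0.257 (exact permutation p = 0.497 and 0.658). The adjusted p was 0.576 for all 5 values of r and 0.593 to 0.658 for rho (Benjamini-Hochberg over the exact permutation p). Without the 2 libraries farthest from the median of the first gene, r was -0.432 for nots with fam20cl, -0.318 and -0.154 with the vitellogenins, and 0.0234 and -0.294 with esr1. All 5 relations changed sign in the values as deposited, so their direction there rests on those libraries. With trimmed-mean scaling, r for fam20cl with the vitellogenins was 0.877 (exact permutation p = 0.0139, adjusted p = 0.0694) and 0.976 without the 2 farthest libraries, and after rescaling without vitellogenins these values of r were 0.657 and 0.584. Under trimmed-mean scaling each relation of nots changed sign without the 2 farthest libraries. The change was from 0.712 to -0.961 with fam20cl, 0.774 to -0.943 with the vitellogenins and 0.398 to -0.569 with esr1. For fam20cl with esr1, r went from 0.757 to 0.616. Within a treatment there were 3 female libraries, too few for a correlation.

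Markers of the ovary and oocyte varied widely among the female libraries. Of 24 symbols 23 were in the table, and their summed level was 472.65, 169.42 and 37.26 TPM in female DMSO and 547.40, 16.48 and 53.66 TPM in female BPAF libraries. In males the sum was 15.96, 42.58 and 41.73 TPM with DMSO and 19.71, 30.65 and 11.67 TPM with BPAF. The female sums thus ran over a 33.2-fold range, against 2.40-fold for nots and 1.5-fold for fam20cl. In female BPAF 2, with the lowest sum of the females, 10 of the 23 markers were at 0, while fam20cl had its highest value, 230.20 TPM. The part of such cells in the nots and fam20cl levels was not tested. In the males other than male DMSO 3, much of the sum came from the germ cell gene dnd1, at 42.03 TPM in male DMSO 2. The same gene gave 8.56 of the 16.48 TPM in female BPAF 2. In male DMSO 3 dnd1 was at 8.66 TPM, beside cldnd at 7.60, zp2.2 at 4.22 and zp2.3 at 2.89 TPM. That library had 2 of the 23 markers at 0, against 10 to 18 in the other males. Of the remaining marker lists, the exocrine pancreas sum was 145.81 to 708.31 TPM in males and 246.01 to 622.43 TPM in females. The intestine sum was 18.25 to 5323.48 TPM in males and 5.56 to 102.36 TPM in females, and the erythrocyte sum was 1793 to 5530 TPM and 817 to 1513 TPM. The macrophage and leukocyte sum was 334 to 760 TPM in males and 111 to 303 TPM in females. Leaving out female DMSO 1 and female BPAF 1, the females with the highest ovary sums, gave a BPAF response of 0.050 on the log2 scale for nots, reversed in sign, an alternative chosen after the data were seen.

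**Figure D5:**
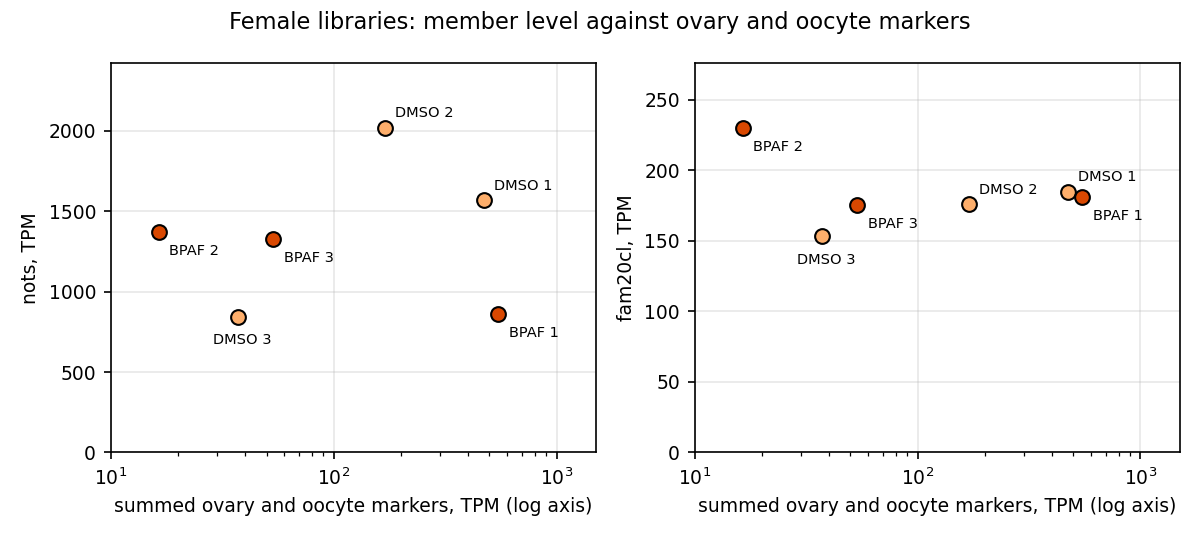
Level of nots (left) and fam20cl (right) in TPM against the summed TPM of 23 ovary and oocyte markers (log axis) in the 6 female libraries, coloured by treatment. The marker sum runs from 16.48 to 547.40 TPM, and fam20cl is highest in the library with the lowest sum.

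Gene order in the GRCz12tu assembly of RefSeq was used only to find neighbours, since the sources used here do not name the build behind the deposited table. On one side of fam20cl, 6 vitellogenin genes (vtg8, vtg2, vtg7, vtg6, vtg4 and vtg5) lie between 6 and 13 protein-coding genes away. The genes dnal4b, si:dkey-179j5.5, nptxrb and polr3f lie inside the span of its gene model. Of these, dnal4b and polr3f were tested, and neither passed between the sexes as deposited. The dynein light chain gene dnal4b was at 0.800 ± 0.331 TPM in female and 0.580 ± 0.301 TPM in male controls (SD, n = 3 each; limma adjusted p = 0.727), and the RNA polymerase III subunit gene polr3f at 1.40 ± 0.715 and 2.49 ± 0.453 TPM (limma adjusted p = 0.140). Among exposed fish female livers had 0.480 ± 0.442 and male livers 1.82 ± 1.55 TPM of dnal4b (limma adjusted p = 0.0838), and it was called when male BPAF 3 was left out (0.0191) or the replicate block was added (0.0320). The other pair was too low to be tested.

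No vitellogenin gene lies on the chromosome of nots in that assembly. On one side its neighbours are cct2, a subunit gene of the chaperonin that folds cytosolic proteins, and then terfa, ikbip and ckap4. These lie 1 to 5 protein-coding genes away. On the other side the nearest genes with values, zgc:194215, znf971, zgc:162948 and zgc:174310, lie 9 to 21 protein-coding genes away. The table holds 2 identifiers named cct2, and which of them adjoins nots is not known here. The first, ENSDARG00000087206, was at 72.0 ± 18.1 TPM in female and 16.9 ± 11.6 TPM in male controls (SD, n = 3 each), a log2 difference of 2.2 ± 0.52 (SE; limma adjusted p = 0.0139). That call ended without male DMSO 2 (0.0502) or female DMSO 1 (0.0605). Among exposed fish its difference was 1.94 ± 0.52 (SE; limma adjusted p = 0.0126). The second, ENSDARG00000104674, was at 222 ± 42.3 and 153 ± 45.1 TPM among controls (limma adjusted p = 0.165; 0.0270 with quantile normalization). Among exposed fish female livers had 198 ± 27.2 and male livers 138 ± 36.6 TPM of it (limma adjusted p = 0.129), and it was called with trimmed-mean scaling (0.0466), quantile normalization (0.0211) and rescaling without vitellogenins (0.0419). The genes terfa, ikbip and ckap4 did not pass among controls (limma adjusted p = 0.920, 0.193 and 0.107), though ckap4 did with trimmed-mean scaling (0.0313) and quantile normalization (0.0346).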

How the data were processed

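Liver RNA of 12 samples was sequenced, with sex and treatment in the labels giving 4 groups of 3. The deposited table gives TPM per gene and library, made by the authors. The unit was inferred: the header names none, values have 2 decimals and columns have nearly equal sums (978504.61 to 992375.41). HISAT2 2.1.0, Cufflinks and RSEM are named without role or order, per the submitters' processing notes, and no genome build is named in the sources used here. TPM keep no depth, so no counting interval was computed, and a few abundant genes in one sex lower all its other values. The authors' columns of group means were not used.

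A limma 3.58.1 model (R 4.3.3, trended variance) was fitted to log2(TPM + 1), with 1 mean per group over all 12 libraries (8 residual degrees of freedom). Each gene had 1 spread shared by the 4 groups. Genes at 1 TPM or more in at least 3 libraries were tested, 11389 of 32520, and both genes passed, each only through females. So did esr1, ar, vtg3, vtg4, vtg6 and vtg7, while bace1 and dipk1ab passed only through males. Calls of these genes between the sexes are not independent of the filter. Calls were made at a Benjamini-Hochberg adjusted p under 0.05. The script was tested on simulated data. Exact permutation tests were 2-sided. Figures and descriptive values used Python 3.11.15 with scipy 1.17.1. The members and the 12 gene lists were chosen with earlier results of these data known.

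Genes to be named were the 2 members and the 5 genes of descriptive symbol most like each member. Aspartic protease, secretory kinase, yolk precursor and steroid receptor genes reaching 1 TPM were added. So were up to 4 genes of highest mean from every other list. Of the genes reaching 1 TPM, dipk2ab, pomk and esr2a were not described. Neighbours, single ovary markers and dipk1ab's libraries were described after their values were seen. Of 32520 identifiers 29201 matched the gene name table. No sequence is shown.

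Replicate numbers are shared between groups. Deviations from the group means correlated at 0.327 to 0.376 between the 3 same-numbered male pairs, all over 0.1, so the numbers were taken to pair the males, from the data alone. In females they correlated at 0.0526 to 0.226 and were not taken as pairs. Alternatives were other pseudocounts, filters and scalings (trimmed mean, quantile, rescaling without vitellogenins), fits on part of the groups, the replicate block and each library left out. The block was an offset per replicate number shared by males and females, though only the males were taken as paired.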

Additional observations from a re-analysis of the deposited data

How the results depend on the processing

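The BPAF response of fam20cl in females stayed between 0.06 and 0.29 on the log2 scale under 22 alternatives, and that of nots in males between -0.82 and -0.10 under 20. Neither passed under any, and fitting the male libraries alone gave no value for nots, which failed the filter there. The nots response in females ran from -0.62 to 0.016 without single libraries and was 0.050 without female DMSO 1 and female BPAF 1 together. Its sex difference in response was 0.57 with a pseudocount of 0.1, -0.15 with 5 and -0.27 to 0.36 without single libraries. The sign of that difference was kept in 13 of 20 alternatives. The replicate block gave limma adjusted p of 1 for nots in females and 0.734 in males and changed no call of either gene. Calls under BPAF in females were 3 with no filter, 1 without the pair with the highest ovary sums and 0 to 0 without single libraries. In males, against 6, they were 1 with a pseudocount of 0.1, 10 with 5, 73 with no filter, 1 with a 5 TPM filter, 1 with trimmed-mean and 1 with quantile scaling, 3 without vitellogenins, 1 with the replicate block, 0 with males alone and 0 to 5 without single libraries. For the difference between sexes, against 0, they were 1 with a pseudocount of 0.1, 1 with 5, 12 with no filter and 0 to 1 without single libraries. Female against male calls among controls, 2655 as deposited, were 1639 with no filter, 1004, 930 and 1100 with trimmed-mean, quantile and vitellogenin-free scaling, 899 without the pair, and 909 to 3199 without single libraries. Among exposed fish, against 5424, they were 3146 with a 5 TPM filter, 645, 664 and 2753 with the 3 scalings, and 2919 to 5412 without single libraries. Over the 6 functional lists, 38 tested genes gave 9 higher calls (8 to 10 under all alternatives) and 13 lower in control females. Over all tested genes, 2.1% were called higher and 21.2% lower. Of the 9 higher calls, 7 were yolk precursor genes and 2 were sex steroid receptor genes. Among them esr1, ar, vtg3, vtg4, vtg6 and vtg7 passed the filter for testing only through females. The lower calls in the lists were 8 with no filter, 1, 1 and 5 with the 3 scalings, 6 without the pair and 5 to 15 without single libraries. Over single female libraries left out, r ran from -0.0635 to 0.570 for nots with fam20cl, -0.513 to -0.168 for nots with esr1, -0.411 to 0.592 for fam20cl with esr1 and -0.193 to 0.934 for fam20cl with the vitellogenins. With trimmed-mean and quantile scaling, r was 0.398 and 0.120 for nots with esr1, 0.712 and 0.552 for nots with fam20cl, 0.757 and 0.650 for fam20cl with esr1, 0.774 and 0.617 for nots with the vitellogenins and 0.877 and 0.519 for fam20cl with the vitellogenins. Under trimmed-mean scaling, each nots relation turned negative without the 2 farthest libraries. The cause of these changes was not tested. The number of libraries per group and the unknown depth limit all of these values.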
